A study of Mus musculus with 20 samples.

Results

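Hmga2, Kctd3, Ank, Ankrd29, Akap7 and Cep97 were 6 of the 21509 genes with TPM values in both experiments of this series, and they were selected on their lower TPM in the libraries with Ift88 siRNA than in those with control siRNA. TPM expresses a gene's transcripts, corrected for their length, as a share of a fixed library total of 1000000. The values of the siRNA experiment therefore chose the genes and are given as a description with no test, whereas their response to flow did not choose them and was tested. All 6 passed the filter on low values (a mean of at least 1 TPM over the libraries of a table) in both experiments.

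All libraries came from DC2 cells, 1 immortalized line of principal cells from the mouse distal caput epididymis. In the first experiment, 6 libraries were from cells that had medium flowing over them for 3 h at a shear stress of 1 dyn/cm2 (flow) and 6 from cells without it (static). The second held 4 libraries from cells transfected with a mixture of Ift88 siRNAs and 4 from cells with a scrambled control siRNA, and the study's methods place both siRNA groups under flow, which the labels do not name. The siRNA groups thus shared the transfection, and no static siRNA library was analysed here.

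Ift88 is a subunit of the intraflagellar transport complex that carries cargo along the cilium, and cells without it build no normal cilium. Of the 6 genes, Cep97 is the one tied directly to the cilium. Its product binds Ccp110 and caps the centriole, and the cap has to leave the mother centriole before a cilium can grow. Hmga2 encodes a chromatin protein that binds AT-rich DNA through AT hooks, is abundant in embryonic and transformed cells and is a well-known target of let-7 microRNAs. Akap7 encodes an A-kinase anchoring protein, which holds protein kinase A (PKA) near its substrates at membranes. Ank, named for the progressive ankylosis of mutant mice and not for ankyrin repeats, encodes a membrane protein that moves pyrophosphate out of the cell and so restrains mineral deposition. Kctd3 belongs to the KCTD family, whose members share a BTB domain, and Ankrd29 is named for its ankyrin repeats.

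On GRCm38, Hmga2 (ENSMUSG00000056758) lies at chr10:120361275-120476469 and Akap7 (ENSMUSG00000039166) at chr10:25169090-25307870, both on the minus strand. Kctd3 (ENSMUSG00000026608) lies at chr1:188971095-189007841 on the minus strand, Ank (ENSMUSG00000022265) at chr15:27466677-27594909 on the plus strand and Cep97 (ENSMUSG00000022604) at chr16:55899888-55934855 on the minus strand. Ankrd29 (ENSMUSG00000057766) lies at chr18:12252362-12305797 on the minus strand. In the annotation, 140 exonic bases of Hmga2 overlapped the antisense gene 1700006J14Rik and 47 of Akap7 the antisense gene Gm40617, and an exon of Ank held Mir7117. The libraries were directional by the study's methods, but whether the assignment of reads used the strand is not given in the sources used here.

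The label of the cells was checked against marker genes. The epithelial genes Krt18, Krt19 and Cldn4 were present in both tables, as was Cftr. The other 6 of the 9 epithelial markers, Krt7, Krt8, Epcam, Cdh1, Cldn3 and Cldn7, had group means of at most 1.16 TPM, and 13 of 15 principal cell markers stayed under 1 TPM in every library of either table. All 5 basal cell markers did so too, and of 7 immune markers Cd68 gave most of the sum, which ran from 10.5 to 65.3 TPM over flow and static libraries and from 87.7 to 100 TPM over the siRNA libraries. None of the markers tested was called in either comparison. Since every library has the same total, its depth is unknown. The number of genes above 0 was 15543 to 16562 over flow and static libraries, 15292 to 15382 with control siRNA and 15713 to 16682 with Ift88 siRNA. It was thus higher in every library with Ift88 siRNA, and its part in the lower levels of the 6 genes was not tested.

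Several libraries stood apart. The library titled flow replicate 6 carries a static label in its treatment field and was counted as flow. In the flow experiment, the first principal component, with 34.4% of the variance, separated replicates 1 to 3 from replicates 4 to 6. Replicate 4 lay in between, at -1.16 (static) and 4.59 (flow). Replicates 1 to 3 were at -7.7 or lower and replicates 5 and 6 at 14.5 or higher. The labels give no reason for these 2 sets. Flow replicate 2 was the library whose removal moved the number of genes called with flow the most.

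The targeted gene was lower in every library with its siRNA. Ift88 was at 4.21, 4.08, 4.15 and 4.12 TPM in control replicates 1 to 4 and at 1.71, 1.27, 1.28 and 0.917 TPM in Ift88 siRNA replicates 1 to 4. With 31.3% of the control mean left, it had the third lowest log2 change of the 11209 genes tested, -1.17 on the log2(TPM + 1) scale (SE 0.13, adjusted p = 0.00212 by limma). In this comparison 25 genes were called, 17 higher and 8 lower, where a call needed both an adjusted p under 0.05 and over 1.5-fold between the groups. That is 0.223% of the genes tested.

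The 6 genes kept 58.1% to 66.9% of their control mean, a smaller fall than that of Ift88. Their log2 changes lay between -0.76 and -0.56 with a median of -0.63, where the median of all genes tested was 0.02, and they ranked from 10 to 32 counted from the lowest. For 5 of the 6, every library with Ift88 siRNA was below every control library. Over all genes tested, 313 or 2.79% showed that pattern, and since the same libraries chose the 6 genes, the count only describes them.

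Cep97, the partner of Ccp110 at the centriole cap, was at 4.99, 5.81, 5.515 and 6.44 TPM in control replicates 1 to 4 and at 3.40, 3.53, 3.50 and 3.47 TPM in Ift88 siRNA replicates 1 to 4. The libraries with Ift88 siRNA lay close together, all below the lowest control. Means were 3.475 ± 0.0574 and 5.69 ± 0.605 TPM (SD, n = 4 each), a log2 change of -0.58 (SE 0.11) with 61.1% left. The offset of 1 TPM weighs on such a low gene. With an offset of 0.1 TPM the change was -0.69.

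Promoters from RefSeq (GRCm38.p6, 250 bases before to 50 bases after the start) were matched for 5 of the 6 genes, with 2 promoters for Akap7, and were searched on both strands for fixed letters. The letters GTTGCC, the core of the motif of RFX factors, which are known regulators of ciliary genes, was found in the promoter of Cep97 at position +23 and in that of Ift88 at +21 on the other strand, and not in the windows of Hmga2, Kctd3, Ank or Akap7. Of 32851 promoters of this length, 12.5% hold these letters. Both sequences are shown because they share these letters close to the start. Capitals mark the matches, which in Cep97 are a TATA box on the reverse strand, CCAAT boxes on either strand that overlap, and the RFX core, and in Ift88 a CCAAT box on the reverse strand, an Egr site and the RFX core. The first lies at chr16:55934799-55935098 on the minus strand and the second at chr14:57423821-57424120 on the plus strand.
Cep97 promoter: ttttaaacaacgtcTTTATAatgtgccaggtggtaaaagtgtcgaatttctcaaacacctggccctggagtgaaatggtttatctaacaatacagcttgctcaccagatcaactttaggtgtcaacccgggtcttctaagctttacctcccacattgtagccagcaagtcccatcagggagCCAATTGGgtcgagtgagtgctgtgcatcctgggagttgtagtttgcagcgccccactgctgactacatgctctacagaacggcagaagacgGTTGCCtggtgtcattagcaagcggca
Ift88 promoter: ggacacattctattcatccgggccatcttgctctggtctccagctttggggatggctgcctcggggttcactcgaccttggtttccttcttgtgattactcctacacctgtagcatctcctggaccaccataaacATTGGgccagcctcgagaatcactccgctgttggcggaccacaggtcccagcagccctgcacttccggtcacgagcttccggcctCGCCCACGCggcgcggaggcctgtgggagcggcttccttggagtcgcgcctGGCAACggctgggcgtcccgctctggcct

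The other 4 genes shared a different element, the GC box GGGCGG. It occurred in the windows of Hmga2 (1 match, at -133), Kctd3 (at -109 and -73), Ank (at -86 and -82, sharing letters) and both promoters of Akap7, and in neither Cep97 nor Ift88. Of all promoters, 35.7% hold it. The CCAAT box, in 37.4% of promoters, was found in Cep97, Ift88 and the second promoter of Akap7. The TATA box TATAAA, in 13.6%, was found in Cep97 only among these genes, and the Egr site GCGTGGGCG, in 0.612%, in Ift88 only. The cAMP response element TGACGTCA, in 1.79%, was in none of these windows. The promoter of Kctd3, shown for its pair of GC boxes in capitals, lies at chr1:189007791-189008090 on the minus strand.
Kctd3 promoter: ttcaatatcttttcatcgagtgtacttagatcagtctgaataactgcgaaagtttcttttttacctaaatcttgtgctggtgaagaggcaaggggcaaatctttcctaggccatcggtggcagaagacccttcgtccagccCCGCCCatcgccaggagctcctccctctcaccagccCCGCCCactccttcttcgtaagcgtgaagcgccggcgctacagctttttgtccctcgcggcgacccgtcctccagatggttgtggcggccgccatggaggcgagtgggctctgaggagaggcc

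Hmga2, the chromatin protein, was the most abundant of the 6 in the siRNA experiment. Its levels were 142, 141, 169 and 144 TPM in control replicates 1 to 4 and 97.7, 101, 88.9 and 89.8 TPM in Ift88 siRNA replicates 1 to 4. The groups were far apart, with control replicate 3 above the other controls. Means were 94.4 ± 6.06 and 149 ± 13.1 TPM (SD, n = 4 each), a log2 change of -0.65 (SE 0.07) with 63.4% left. Hmga2 had the smallest standard error of the 6.

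As a target of let-7, Hmga2 was searched for the letters that pair with the let-7 seed. The mature let-7a of the mouse is shown with its seed, bases 2 to 8, in capitals, and the matching letters in a transcript are ctacctc.
mmu-let-7a-5p: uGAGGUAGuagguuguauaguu
The 3′ untranslated region of Hmga2 held 4 such matches in 3014 bases and that of Cep97 held 1 in 5280 bases, whereas those of Kctd3, Ank, Ankrd29 and Akap7 held none. Of 11125 genes with such a region, 10.5% held at least 1 match and 6 held at least 4. The microRNA itself was not measured in these libraries.

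Kctd3, of the KCTD family, was at 14.3, 12.7, 14.35 and 13.7 TPM in control replicates 1 to 4 and at 8.82, 9.81, 9.37 and 6.74 TPM in Ift88 siRNA replicates 1 to 4. The groups did not overlap, and Ift88 siRNA replicate 4 was the lowest. Means were 8.68 ± 1.36 and 13.75 ± 0.764 TPM (SD, n = 4 each), a log2 change of -0.62 (SE 0.12) with 63.2% left.

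Ank, the pyrophosphate transporter, was at 27.7, 24.9, 34.0 and 31.5 TPM in control replicates 1 to 4 and at 18.05, 20.2, 23.7 and 17.0 TPM in Ift88 siRNA replicates 1 to 4. The groups came close, since Ift88 siRNA replicate 3 lay just under control replicate 2. Means were 19.7 ± 2.96 and 29.5 ± 4.00 TPM (SD, n = 4 each), a log2 change of -0.56 (SE 0.12) with 66.9% left, the smallest fall of the 6.

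Ankrd29, the ankyrin repeat gene, was at 38.0, 24.6, 36.7 and 37.35 TPM in control replicates 1 to 4 and at 26.5, 19.7, 16.6 and 16.5 TPM in Ift88 siRNA replicates 1 to 4. It was the only one of the 6 whose groups overlapped, as control replicate 2 fell below Ift88 siRNA replicate 1. Means were 19.8 ± 4.68 and 34.15 ± 6.41 TPM (SD, n = 4 each), a log2 change of -0.76 (SE 0.16) with 58.1% left. Its mean thus fell the furthest of the 6, with the largest standard error.

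Akap7, the PKA anchor, was at 19.5, 15.0, 20.7 and 13.45 TPM in control replicates 1 to 4 and at 9.04, 12.1, 11.8 and 8.62 TPM in Ift88 siRNA replicates 1 to 4. The groups did not overlap, although control replicate 4 was close to Ift88 siRNA replicate 2. Means were 10.4 ± 1.83 and 17.15 ± 3.49 TPM (SD, n = 4 each), a log2 change of -0.66 (SE 0.15) with 60.7% left.

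**Figure D1:**
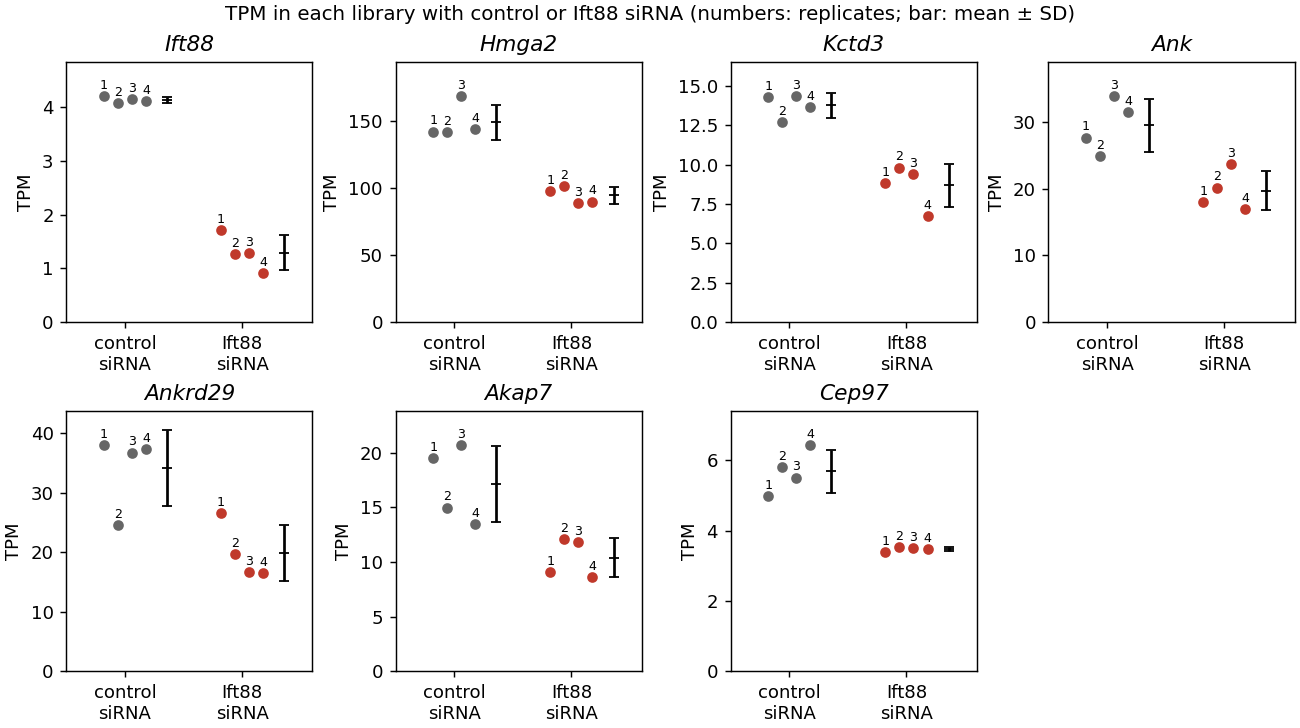
Level in TPM (vertical axis of each panel, from 0) of Ift88 and the 6 genes in the 4 libraries with control siRNA (grey) and the 4 with Ift88 siRNA (red), with replicate numbers over the points and the mean ± SD beside them. The groups are apart in every panel but that of Ankrd29, where control replicate 2 (24.6 TPM) lies below Ift88 siRNA replicate 1 (26.5 TPM).

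Some libraries were the lowest or highest of their group for several of the 6 genes. Ift88 siRNA replicate 4 had the lowest level of its group for 4 of the 6 genes and also for Ift88, and Ift88 siRNA replicate 2 had the highest for 4. Among controls, replicate 2 was lowest for 4 genes and replicate 3 was highest for 4. Ift88 siRNA replicate 4 (-14.46) and control replicate 3 (20.52) were also the ends of the first principal component of the siRNA libraries. The same counts over all genes tested were not made, so no shared variation of the 6 is read from them. Without 1 library at a time the log2 changes, which these libraries chose and which are therefore no sign of stability, ran from -0.69 to -0.59 for Hmga2, -0.67 to -0.51 for Kctd3, -0.65 to -0.49 for Ank, -0.90 to -0.68 for Ankrd29, -0.77 to -0.57 for Akap7 and -0.63 to -0.52 for Cep97.

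To see whether stretches of sequence were shared with the targeted transcript, the longest run of letters common to the Ift88 coding sequence (2475 bases) and any annotated transcript of each gene was found. It was 11 bases for Ankrd29, 13 for Cep97 and 12 for the other 4, and the median over 11171 genes was 12 bases with a maximum of 19. These runs, in the 3′ untranslated region for Hmga2, Ank and Cep97, the coding part for Kctd3 and the 5′ untranslated region for Akap7, are shown to give the size of the longest stretch in common.
Hmga2: actcagatgcca
Kctd3: ttcaggatggag
Ank: tgacttgctccc
Akap7: ggaagaaaagag
Cep97: atcatgacagctg
The sequences of the siRNAs were not used here, so their own matches to these genes were not searched.

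In both siRNA groups the order of levels was the same, with Hmga2 far above the rest, then Ankrd29 and Ank, then Akap7 and Kctd3, then Cep97. The ranges of Ankrd29 and Ank overlapped, as did those of Akap7 and Kctd3. In the flow experiment, Ank, Hmga2 and Akap7 overlapped at the top, Kctd3 followed, and Ankrd29 and Cep97, which overlapped, were lowest. Hmga2 in static libraries also overlapped Kctd3. The experiments share no library, so no level was compared between them.

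The flow experiment asked whether the genes respond to shear stress itself. None of the 6 was called with flow, where 12 of 11388 genes were (0.105%), all 12 of them higher. None reached an unadjusted p under 0.05, where 438 genes did, and the flow and static groups overlapped for all 6. The adjusted p by limma was 0.998 for each. Means were higher with flow for 3 genes and lower for 3, with a median log2 change of -0.04 against -0.03 for all genes tested. Ift88 itself was at 4.43 ± 0.979 TPM with flow and 4.64 ± 0.380 TPM in static libraries (SD, n = 6 each), a log2 change of -0.07 (95% interval -0.34 to 0.20, adjusted p = 0.998).

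Cep97 ran from 4.575 to 9.19 TPM with flow (median 6.75) and from 3.65 to 10.5 TPM in static libraries (median 8.47). The static range enclosed that with flow. The log2 change was -0.15 (95% interval -0.61 to 0.31), and flow was lower in 5 of 6 same-numbered pairs. The pairs ran from -1.04 in replicate 6, whose flow library has the conflicting label, to 0.88 in replicate 2. The change was 0.15 in replicates 1 to 3 and -0.46 in replicates 4 to 6, so this mean too joined opposite differences.

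Hmga2 ran from 26.85 to 52.3 TPM with flow (median 48.3) and from 21.05 to 45.1 TPM in static libraries (median 39.6). Replicate 5 was the lowest library of either group. The log2 change was 0.18 (95% interval -0.24 to 0.61), and flow was higher in 5 of 6 pairs, replicate 2 being the exception. The change was 0.03 without static replicate 5 and 0.31 without flow replicate 5. It was 0.03 in replicates 1 to 3 and 0.33 in replicates 4 to 6.

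Kctd3 was the steadiest of the 6, from 19.5 to 24.3 TPM with flow (median 21.85) and from 19.8 to 22.8 TPM in static libraries (median 21.0). The log2 change of 0.05 had the narrowest interval, -0.10 to 0.20. Flow was higher in 5 of 6 pairs.

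Ank ran from 36.8 to 58.8 TPM with flow (median 44.6) and from 35.1 to 53.75 TPM in static libraries (median 46.3). The log2 change was 0.01 (95% interval -0.28 to 0.29), with 3 pairs higher and 3 lower. Its spread followed the sets of replicates. Replicates 1 to 3 had means of 38.4 ± 1.38 TPM with flow and 39.2 ± 3.74 TPM without, and replicates 4 to 6 had 53.5 ± 4.69 and 51.9 ± 1.75 TPM (SD, n = 3 each), with no overlap between the sets.

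Akap7 ran from 27.25 to 50.2 TPM with flow (median 40.6) and from 33.6 to 53.5 TPM in static libraries (median 47.3). The log2 change of -0.24 (95% interval -0.60 to 0.11) was the lowest of the 6, and flow was lower in 5 of 6 pairs. The difference was only -0.03 in replicate 4 and -0.09 in replicate 5. Without 1 library at a time the log2 change ran from -0.33 to -0.15.

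Ankrd29 ran from 7.87 to 15.2 TPM with flow (median 13.2) and from 8.74 to 17.4 TPM in static libraries (median 13.0). The log2 change over all libraries was -0.08 (95% interval -0.46 to 0.30), but this mean also joined opposite differences. In replicates 1 to 3 the means were 9.86 ± 1.87 TPM with flow and 15.1 ± 2.46 TPM without, and flow was lower in 3 of 3 pairs. In replicates 4 to 6 they were 15.0 ± 0.242 and 11.2 ± 2.41 TPM (SD, n = 3 each), and flow was higher in 3 of 3 pairs. The difference between the 2 effects was 0.98 on the log2 scale (SE 0.24, unadjusted p = 0.00157 by limma). It did not pass adjustment over the 11388 genes (adjusted p = 0.884), among which 0 passed and 238 had an unadjusted p under 0.05, and the sets were compared after they were seen to stand apart.

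**Figure D2:**
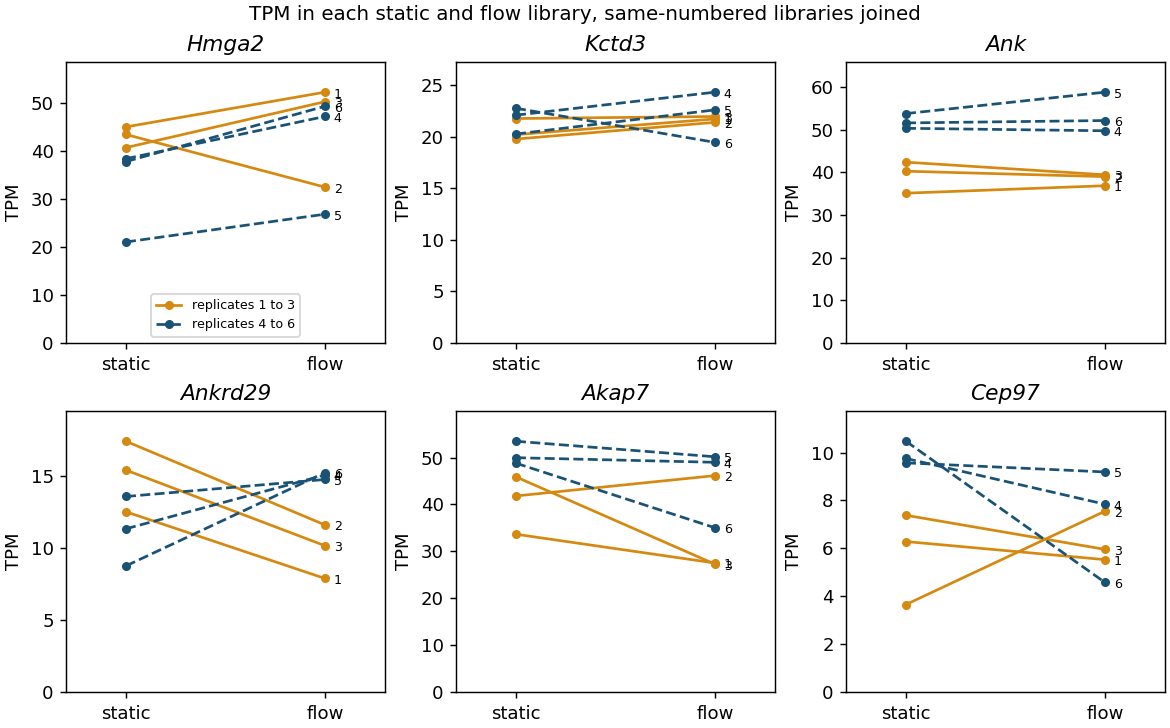
Level in TPM (vertical axis of each panel, from 0) of the 6 genes in the 6 static and the 6 flow libraries, with lines joining libraries of the same replicate number, replicates 1 to 3 in orange and solid, 4 to 6 in blue and dashed. Ankrd29 falls in all 3 orange pairs and rises in all 3 blue pairs, and the blue lines of Ank lie above the orange ones.

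Same-numbered flow and static libraries deviated together, so the number was also entered into limma as a block. This fit called 68 genes, 0.597% of those tested, and none of the 6. Akap7 came closest, with a log2 change of -0.24 (95% interval -0.47 to -0.02, unadjusted p = 0.0359, adjusted p = 0.404 by limma), followed by Hmga2 with 0.18 (95% interval -0.03 to 0.40, adjusted p = 0.516). The intervals of Cep97 (-0.565 to 0.26) and Ankrd29 (-0.46 to 0.30) were the widest in this fit, and that of Ank (-0.11 to 0.13) the narrowest. Without the flow replicate of conflicting label the log2 changes of the 6 genes lay between -0.22 (Akap7) and 0.14 (Hmga2), with it counted as static between -0.17 (Ankrd29) and 0.10 (Kctd3). Counted as static, it turned the direction of Cep97 (0.02) and Ank (-0.06), and since 0 genes were called by limma in that setting (181 had an unadjusted p under 0.05), no call was to be had for the 6. Without flow replicate 2 they lay between -0.30 (Akap7) and 0.255 (Hmga2), again with none called.

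**Figure D3:**
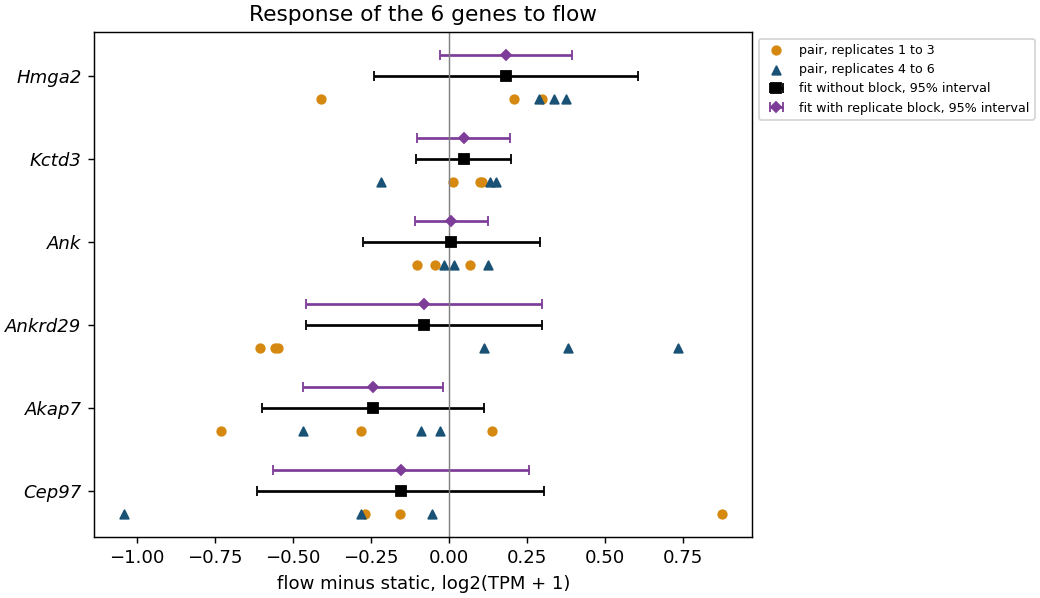
Flow minus static on the log2(TPM + 1) scale (horizontal axis) for the 6 genes, with black squares for the limma estimate, purple diamonds for that with the replicate block, bars for their 95% intervals, and single same-numbered pairs as orange circles (replicates 1 to 3) and blue triangles (4 to 6). Every black interval crosses 0, and of the purple ones that of Akap7 alone lies below 0 (-0.47 to -0.02), at an adjusted p of 0.404.

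The 6 genes did not vary as 1 group over the 12 flow and static libraries. Of their 15 pairs, 9 correlated positively and 6 negatively, with Pearson's r of log2(TPM + 1) from -0.715 (Hmga2 and Akap7) to 0.664 (Ank and Akap7) and a median of 0.255. All libraries sum to the same total and fall into the 2 sets of replicates, so r is given as a description. Within replicates 1 to 3 and 4 to 6 (6 libraries each), Hmga2 and Akap7 gave -0.870 and -0.653, and Ank and Akap7 gave 0.548 and 0.151. In both sets alike, 6 pairs were positive and 5 negative. Hmga2 was negative with Ank, Akap7 and Cep97 in either set.

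**Figure D4:**
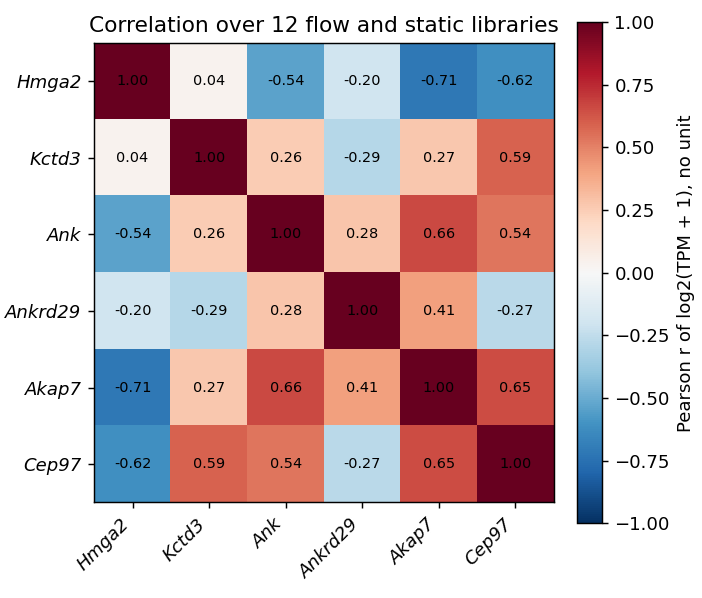
Pearson's r of log2(TPM + 1) between each pair of the 6 genes over the 12 flow and static libraries, printed in each cell and coloured from blue (-1) to red (1). The row of Hmga2 is negative for Ank, Ankrd29, Akap7 and Cep97, and the highest value off the diagonal is that of Ank and Akap7 (0.664).

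Other genes followed single members more closely than the members followed each other. Over the same 12 libraries, the gene most like Hmga2 was Tnnt2 (r = 0.987), and that most like Akap7 was Btbd1 (r = 0.971). For Ank it was Prkar1a, a regulatory subunit of PKA (r = 0.978), with Ptk2b next (r = 0.977). For Cep97 it was Fbxo9 (r = 0.925), and for Kctd3 Klhdc2 (r = 0.923). Ankrd29 had the weakest likeness, to Nhsl2 (r = 0.776) and Gm10033 (r = 0.775). The second for the other genes were Polr1g for Hmga2 (r = 0.948), Fbxo21 for Akap7 (r = 0.945), Smarcd2 for Cep97 (r = 0.892) and Gm49391 for Kctd3 (r = 0.831). Each is the highest of the genes tested, so a high value is partly a result of the choice.

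The relatives of the 6 genes were then counted in the siRNA experiment, from lists without the 6 genes themselves. Of the 105 listed genes tested, 0 were called in either direction, and at the 0.223% called over all genes that says nothing particular of the lists. Of 19 genes of the centriole cap and of cilium initiation, the setting of Cep97, 6 had a higher and 13 a lower mean with Ift88 siRNA, with a median log2 change of -0.05. The lowest was Neurl4, whose product acts on Ccp110, at 5.31 ± 0.906 against 7.81 ± 1.07 TPM (SD, n = 4 each), a log2 change of -0.49 (SE 0.14, adjusted p = 0.135), with no overlap between the groups. Mark4, a kinase of the mother centriole, was the highest with 0.28 (adjusted p = 0.541). Ccp110, named after its values were seen because it is the partner of Cep97, was at 16.9 ± 1.13 and 17.0 ± 1.73 TPM, a log2 change of -0.01 (SE 0.10).

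Of 14 genes of the HMGA, Lin28 and let-7 target list, 4 had a higher and 10 a lower mean (median -0.04), from Arid3b at -0.30 (adjusted p = 0.495) to Arid3a at 0.46 (adjusted p = 0.247), both let-7 targets that encode DNA-binding proteins. Of 17 PKA subunits and A-kinase anchoring proteins, relatives of Akap7, 9 had a higher and 8 a lower mean (median 0.0004). The lowest was Prkar1b, a regulatory subunit, at -0.35 (adjusted p = 0.526). The highest was Akap8l, a nuclear anchoring protein, at 62.2 ± 2.13 against 49.3 ± 2.01 TPM, a log2 change of 0.33 (SE 0.06, adjusted p = 0.0453), which is below the fold threshold.

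In the KCTD family, 8 of 16 genes had a higher and 8 a lower mean (median 0.02), from Kctd2 at -0.25 (adjusted p = 0.545) to Kctd5 at 0.23 (adjusted p = 0.473). Of 9 genes of pyrophosphate and phosphate handling, the setting of Ank, 6 were higher and 3 lower by their means (median 0.02), from the phosphate transporter Slc20a1 at -0.23 (adjusted p = 0.377) to the phosphatase Phospho1 at 0.19 (adjusted p = 0.481). Of 30 other genes of the ankyrin repeat list (ANKRD genes with the ankyrins Ank2 and Ank3), 13 were higher and 17 lower by their means (median -0.01). They ran from Ankrd13b at -0.31 (adjusted p = 0.346 by limma) to Ankrd6 at 0.26 (adjusted p = 0.432 by limma). The medians of the 6 lists thus lay between -0.05 and 0.02 beside 0.02 for all genes tested. The 6 genes themselves, chosen for their fall, lay below the lowest gene of their lists.

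With flow, 0 of the 105 listed genes tested were called, where 0.105% of all genes were, and the lists had medians from -0.02 to 0.04. With the replicate block, which called 0.597% of all genes, 3 of the 105 rose. In all 3 the highest library was flow replicate 6, the one with the conflicting label. Thbs1, which encodes a matrix glycoprotein and stands in the let-7 list, went from 63.2 ± 9.36 to 193 ± 84.1 TPM (SD, n = 6 each), a log2 change of 1.47 (adjusted p = 0.00643 with the block and 0.0565 without it). Without flow replicate 6 its flow mean was 171 TPM and its log2 change 1.31. Kctd11, a relative of Kctd3, went from 7.425 ± 0.527 to 26.6 ± 22.7 TPM, a log2 change of 1.45 (adjusted p = 0.0153 and 0.0887). Its flow mean was raised by replicate 6 at 72.8 TPM. Without that library it was 17.4 ± 2.48 TPM (SD, n = 5), a log2 change of 1.118. The adjusted p was then 0.000299 by limma with no block, so the gene was called. The groups did not overlap, with flow libraries at 14.2 TPM or more and static ones at 8.22 TPM or less. Ankrd1, which encodes an ankyrin repeat protein of cardiac and stretched muscle, went from 515 ± 68.8 to 1387 ± 702 TPM. Its log2 change was 1.27 (adjusted p = 0.00774 and 0.113), or 1.08 without flow replicate 6. With no block, the adjusted p by limma without flow replicate 6 was 0.0973 for Thbs1 and 0.191 for Ankrd1. Without flow replicate 2 it was 0.000414 for Thbs1, 0.0275 for Kctd11 and 0.0026 for Ankrd1.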

How the data were processed

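The data were RNA-seq libraries of the mouse line DC2, 12 of them flow or static and 8 with siRNA. The authors deposited TPM for 21509 genes, 1 table per experiment. The submitters' processing notes name fastp 0.20.0, FastQC 0.11.8, MultiQC 1.8 and kallisto 0.46.2, and the methods name Trimmomatic, tximport and DESeq2 on an Ensembl mouse annotation. TPM are no counts and hold no depth, so no count test was run and counting error is unknown. All 20 columns belonged to a labelled sample (0 left out).

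From the deposited TPM, log2(TPM + 1) was fitted with limma 3.58.1 (lmFit, eBayes with trend) in R 4.3.3 over genes whose mean in a table reached 1 TPM, with Benjamini-Hochberg adjustment over all of them. A call needed an adjusted p under 0.05 and over 1.5-fold between groups. This scale understates the change of low genes. In simulated tables, where 200 genes had a log2 change of 1, this recovered 93% in the flow design (11388 genes, 2.62% of calls false) and 96% in the siRNA design (11209 genes, 3.52% false).

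The genes and lists were chosen with earlier results of these data known. The text names the 6 genes and Ift88, in each list the genes called and the lowest and highest log2 change tested with siRNA, and for each of the 6 the 2 genes of highest correlation. Pakap, with 3 rows, was left out of its list. Groups follow the labels, which number the libraries without saying that siRNA libraries came from separate cultures, so p-values measure the spread between libraries, which may be technical. Deviations of same-numbered flow and static libraries from their group means correlated over genes at 0.294, 0.463, 0.425, 0.468, 0.662 and 0.600 for replicates 1 to 6, so these numbers were taken to pair them. Flow replicate 3 correlated better with a static library of another number. The 2 sets of replicates can by themselves give positive values, so the pairing by number remains an assumption. The alternatives were no filter or a filter at 0.5 TPM, an offset of 0.1 TPM, library weights, median-of-ratios scaling, the replicate number as a term, removal of any 1 library, calls without the fold threshold, the other label of flow replicate 6 and each set of replicates alone. The comparison of the 2 sets' effects was added after the data were seen. Positions, transcripts and untranslated regions are from GENCODE M21 on GRCm38, and promoters and let-7a are from RefSeq, with Python 3.11.15. Neither was mapped to the authors' annotation other than by gene ID or symbol. The values of 1 marker are not reported here.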

Additional observations from a re-analysis of the deposited data

Results flagged for a closer look

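Of 24 groups of 4 or 6 libraries of the 6 genes, 3 held a library whose gap to its nearest neighbour was large for the group's range by Dixon's criterion, which chance meets in about 1 of 20 groups. Hmga2 was at 21.05 TPM in static replicate 5, the lowest of its group, where the next was 37.8 TPM, and its flow partner, replicate 5, was the lowest of the flow group. Hmga2 was at 169 TPM in control siRNA replicate 3, where the next was 144 TPM. As the highest control, that library did not set the distance between the groups. Ankrd29 was at 24.6 TPM in control siRNA replicate 2, where the next was 36.7 TPM, and this library alone made its groups overlap.

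The effect of flow on Ankrd29 differed between replicates 4 to 6 and replicates 1 to 3 by 0.98 on the log2 scale (SE 0.24, unadjusted p = 0.00157 and adjusted p = 0.884 by limma), with every pair of 1 set higher and every pair of the other lower. For the other 5 genes the same difference lay between -0.61 (Cep97) and 0.30 (Hmga2), with unadjusted p from 0.0996 to 0.736. What sets the 2 sets apart is not given in the labels.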

How the results depend on the processing

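None of the 6 genes was called with flow under any of 22 alternatives. The number of genes called with flow, 12, was 2 with no filter, 28 with median-of-ratios scaling, 86 with library weights, 68 with the replicate block, 0 with flow replicate 6 counted as static (by limma, as are all counts here), 5 in replicates 1 to 3 and 56 in replicates 4 to 6, and 5 to 87 without 1 library (87 without flow replicate 2, 5 without flow replicate 4, 6 without static replicate 1, 2 or 4 and 7 without static replicate 3). Listed genes called with flow, 0, were 1 with median-of-ratios scaling, 3 with library weights, 3 with the replicate block, 1 in replicates 1 to 3, 2 in replicates 4 to 6 and 0 to 3 without 1 library (3 without flow replicate 2, 1 without flow replicate 6). The number called with siRNA, 25, was 6 with no filter, 48 with library weights, 71 with no fold threshold and 11 to 23 without 1 library (11 without Ift88 siRNA replicate 1 or control replicate 1, 12 without control replicate 4, 13 without Ift88 siRNA replicate 2, 14 without control replicate 3). Listed genes called with siRNA, 0, were 1 (Akap8l) with no fold threshold. The causes were not tested. Same-numbered siRNA libraries correlated at 0.046, 0.003, 0.259 and 0.176 and share only a number, and with the replicate block 44 genes were called. The flow change of Ank, 0.01, was -0.0613 with replicate 6 counted as static, -0.0262 in replicates 1 to 3 and -0.0659 to 0.066 without 1 library. That of Ankrd29, -0.08, was 0.41 in replicates 4 to 6 and -0.1816 to 0.033 without 1 library (above 0 without flow replicate 1 or static replicate 2). That of Cep97, -0.15, was 0.0221 with replicate 6 counted as static, 0.15 in replicates 1 to 3 and -0.46 in replicates 4 to 6. It was -0.0147 with library weights and -0.3272 to -0.0642 without 1 library. The replicate block changed no other call. Since the depth is unknown, no counting error can be given for Cep97 and Ift88, the lowest genes.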
